A study of Mus musculus with 6 samples.

Results

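The macrophage marker genes of inguinal white adipose tissue (iWAT) were the 10 genes *Emr1*, *Cd68*, *Csf1r*, *Mrc1*, *Cd163*, *Itgam*, *Itgax*, *Lyz2*, *Clec10a* and *Trem2*. They were picked by symbol from a table of 19445 gene loci, where each matched 1 locus, and the rule used the symbol alone, although earlier results of these data were known when the list was drawn up. The table held RNA-Seq of iWAT, the subcutaneous fat of the groin, from 3 *Hlx* transgenic mice and 3 wild-type littermates, with 1 library per mouse. *Hlx* encodes a homeobox transcription factor, and its cDNA was driven in the transgenic mice by the *aP2* (*Fabp4*) promoter, which is used for adipocytes while *Fabp4* is also known from macrophages. The labels gave all mice as males of 12 weeks, untreated, and the lines had been made in C57BL/6 × SJL embryos and crossed back to C57BL/6. The libraries were made from RNA of whole tissue, and each level is a share of its library. Fewer macrophages, less RNA of a marker per macrophage and more RNA from other cells therefore cannot be told apart in any value below. Levels are given in FPKM, reads scaled to transcript length and to the mapped reads of the library, which allows levels of different genes to be compared. Fold changes are transgenic over wild type after adding 1 to each FPKM value and taking log2, which makes the change of weakly expressed genes look smaller than it is.

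Macrophages of fat clear dying adipocytes and handle the lipid and iron that these release. They need signalling through the receptor Csf1r to live, and their number and surface markers differ between lean and obese fat and between white and brown fat. The markers analysed here cover the lineage receptor, a lysosomal membrane protein, a secreted enzyme, scavenger and lectin receptors, integrins of the complement receptor family and a lipid-sensing receptor.

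The 250 bases before the RefSeq start site of the marker genes were searched for GAGGAA on both strands. This is the core that the macrophage transcription factor PU.1 and other ETS proteins bind. The promoter table (GRCm38.p6, the assembly behind mm10) held 7 of the 10 genes and lacked *Emr1*, *Csf1r* and *Clec10a*. The core was present in 4 of these 7, *Mrc1*, *Itgam*, *Cd68* and *Trem2*, and in 23.3% of 32851 mouse promoters of the same length. *Cd163*, *Itgax* and *Lyz2* had 0 matches. Whether these sites have a part in the difference between the genotypes was not tested. The longer form GAGGAAGT, which contains the core, was in 0 of the 7 and in 2.44% of all promoters. The windows of 3 genes with the core and no annotated exon base (GENCODE M21) are shown 5′ to 3′ on the strand of the gene, with each match in capitals (GAGGAA, or TTCCTC where it lies on the opposite strand). They are *Itgam* (chr7:128062390-128062639, plus strand), *Cd68* (chr11:69666171-69666420, minus strand) and *Trem2* (chr17:48346151-48346400, plus strand).
Itgam: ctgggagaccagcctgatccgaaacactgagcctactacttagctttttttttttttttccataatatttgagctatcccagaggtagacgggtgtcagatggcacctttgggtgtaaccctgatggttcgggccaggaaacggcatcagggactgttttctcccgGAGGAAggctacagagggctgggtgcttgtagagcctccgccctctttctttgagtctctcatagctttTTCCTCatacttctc
Cd68: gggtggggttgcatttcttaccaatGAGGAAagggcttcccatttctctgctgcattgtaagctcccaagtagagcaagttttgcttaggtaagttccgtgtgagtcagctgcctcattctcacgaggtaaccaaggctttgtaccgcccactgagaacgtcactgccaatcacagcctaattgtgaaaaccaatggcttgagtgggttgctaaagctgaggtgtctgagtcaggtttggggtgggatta
Trem2: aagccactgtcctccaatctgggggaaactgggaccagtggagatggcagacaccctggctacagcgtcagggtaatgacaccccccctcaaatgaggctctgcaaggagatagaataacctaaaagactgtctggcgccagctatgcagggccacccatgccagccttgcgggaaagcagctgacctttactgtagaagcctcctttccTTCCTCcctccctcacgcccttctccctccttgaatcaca
The matches begin at -84 and -15 from the start site in *Itgam*, at -225 in *Cd68* and at -40 in *Trem2*. The *Cd68* window lies largely inside the deposited locus, which reaches further upstream than the RefSeq start. *Spi1*, the gene of PU.1 itself, had no row under this symbol, so its level was not analysed here.

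All 10 marker genes had a log2 fold change below 0 in *Hlx* transgenic iWAT, with mean FPKM between 27.7% and 52.9% lower than in wild-type iWAT and a median decrease of 40.9%. Of the 10, 6 fell at a limma adjusted p under 0.05 over all loci tested, namely *Lyz2*, *Cd68*, *Csf1r*, *Clec10a*, *Cd163* and *Emr1*, while 0 rose. Among the 11692 loci tested, those whose mean FPKM was over 1 in either genotype, 7.03% fell and 11.6% rose by the same rule, 18.6% in all. *Mrc1*, *Itgam*, *Itgax* and *Trem2* did not pass. In 9 of the 10, every transgenic mouse was below every wild-type mouse, which was so for 20.1% of all loci tested, while 22.8% had every transgenic mouse above every control. The median log2 fold change was -0.63 over the marker genes and -0.01 over all loci tested, and 51.6% of all loci were below 0. The number of marker genes that fell was 3 without wild-type replicate 1 or 3, 2 without transgenic replicate 1 or 3, and 7 without transgenic replicate 2. Over all loci, 822 fell with all mice. The number was 493 and 400 without wild-type replicates 1 and 3, 470 and 329 without transgenic replicates 1 and 3, and 906 without transgenic replicate 2.

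**Figure D1:**
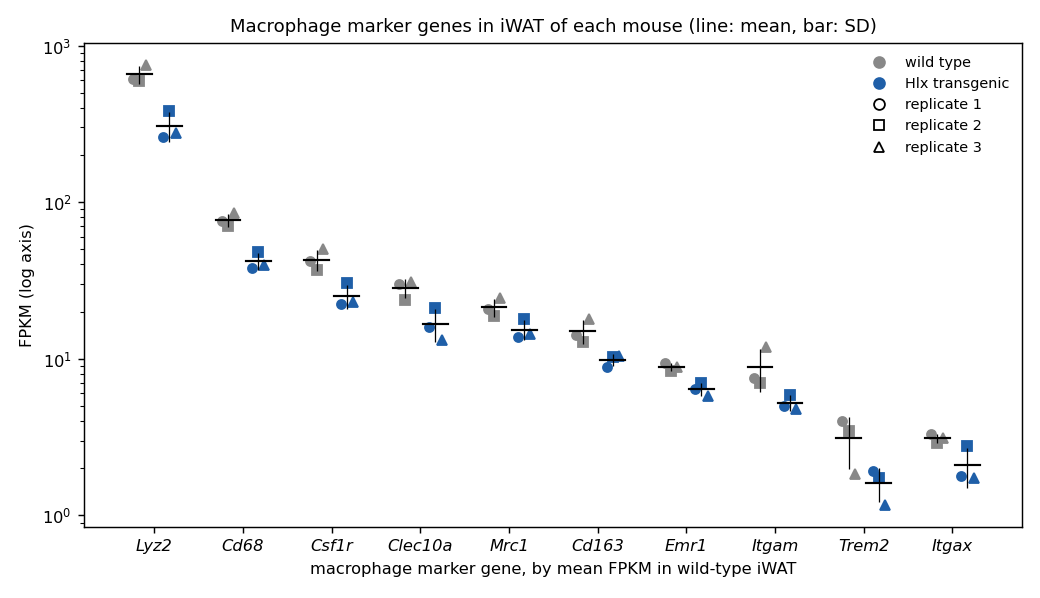
FPKM of the 10 macrophage marker genes in each mouse, on a log axis, ordered by the wild-type mean. Each point is 1 mouse, with grey for wild type, blue for *Hlx* transgenic and the shape for the replicate, and the lines give the mean and SD of 3 mice. The transgenic points lie below the wild-type points for every gene except *Trem2*, where wild-type replicate 3 at 1.84 FPKM falls among them.

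*Csf1r*, the receptor for the growth factors Csf1 and Il34 on which macrophages depend, had 22.3, 30.3 and 23.0 FPKM in the transgenic mice and 41.8, 36.7 and 50.0 FPKM in the wild-type mice. The groups were apart, and the nearest pair was transgenic replicate 2 and wild-type replicate 2. The means were 25.2 ± 4.42 and 42.9 ± 6.71 FPKM (SD, n = 3 each), and the log2 fold change was -0.75 (SE 0.15, limma adjusted p = 0.0185). Its adjusted p was 0.0576 without wild-type replicate 3, and 0.0559 and 0.0678 without transgenic replicates 1 and 3. The locus (chromosome 18, 61105572 to 61177050, mm10) overlaps exons of *Hmgxb3* on the other strand, whose own row did not pass the test (log2 fold change 0.02, limma adjusted p = 0.869). *Emr1* (now *Adgre1*; chromosome 17, 57358653 to 57483529) encodes F4/80, the surface antigen by which mouse macrophages are usually stained. It had 6.43, 6.99 and 5.76 FPKM in transgenic iWAT against 9.33, 8.29 and 8.90 FPKM in wild-type iWAT. This was the log2 fold change nearest to 0 of the 10, at -0.41 (SE 0.09, limma adjusted p = 0.0239), with no overlap and with little spread in either group. Its adjusted p lay between 0.0505 and 0.0768 without any 1 of wild-type replicates 1 to 3 and transgenic replicates 1 and 3.

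On the log2(FPKM + 1) scale the largest fold changes in size were those of 2 abundant phagocyte products. In plain FPKM the mean of the weakly expressed *Trem2* was 48.3% lower, against 45.4% for *Cd68*. *Lyz2* (chromosome 10, 117277330 to 117282337) encodes the lysozyme of macrophages and neutrophils, which digests bacterial walls. It was at 262, 384 and 277 FPKM in transgenic iWAT and at 613, 593 and 755 FPKM in wild-type iWAT, so that even the highest transgenic mouse stayed well under the lowest control. The means were 308 ± 66.6 and 653 ± 88.1 FPKM (SD, n = 3 each), and the log2 fold change was -1.10 (SE 0.18, limma adjusted p = 0.00823). *Cd68* (chromosome 11, 69664103 to 69666413), a glycoprotein of macrophage lysosomes, had 38.2, 47.9 and 40.0 FPKM in the transgenic and 75.7, 70.3 and 85.0 FPKM in the wild-type mice. Its log2 fold change was -0.86 (SE 0.12, limma adjusted p = 0.0040). *Lyz2* and *Cd68* were the only 2 of the 10 that passed the test under all 14 alternative settings of the fit, with adjusted p of at most 0.0367 and 0.0217. *Lyz1*, the neighbouring lysozyme gene, shares 1.97% of the 100-base words of *Lyz2* transcripts. Only exact matches were counted, so an exchange of reads that align with mismatches was not tested. *Lyz1* itself fell from 62.1 ± 25.9 to 21.4 ± 6.27 FPKM (SD, n = 3 each), and the log2 fold change was -1.46 (SE 0.31, limma adjusted p = 0.0196), and its adjusted p was 0.0613 without transgenic replicate 3.

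Of the 3 scavenger and lectin receptors, which tissue-resident macrophages carry, 2 fell. *Cd163* (chromosome 6, 124304651 to 124330584), which takes up haemoglobin bound to haptoglobin, was at 8.85, 10.3 and 10.4 FPKM in transgenic iWAT. In wild-type iWAT it was at 14.2, 12.8 and 18.0 FPKM. The 3 transgenic mice lay close together, all below the lowest control, and the log2 fold change was -0.55 (SE 0.13, limma adjusted p = 0.0303). *Clec10a* (chromosome 11, 70166623 to 70170969), a galactose-binding lectin, had 15.9, 21.1 and 13.2 FPKM in transgenic against 30.1, 23.8 and 31.0 FPKM in wild-type mice. The nearest pair was again replicate 2 of each genotype, and the log2 fold change was -0.74 (SE 0.18, limma adjusted p = 0.0301). *Cd163* was not called without any 1 of wild-type replicates 1 and 3 and transgenic replicates 1 to 3 (adjusted p up to 0.0840), nor *Clec10a* without wild-type replicates 1 or 3 or transgenic replicates 1 or 3 (up to 0.0994). *Mrc1* (chromosome 2, 14229414 to 14332023), the mannose receptor CD206, had 13.8, 17.9 and 14.4 FPKM in transgenic and 20.9, 18.9 and 24.4 FPKM in wild-type iWAT. The groups were apart by a small margin, and its log2 fold change of -0.46 (95% interval -0.76 to -0.15) had a limma adjusted p of 0.0519, which became 0.0296 without transgenic replicate 2. *Mgl2*, the sister gene of *Clec10a*, shares 2.99% of the *Clec10a* words and had a log2 fold change of -0.27 (limma adjusted p = 0.214), with overlapping groups.

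The integrin chains did not pass the test, though neither overlapped between the genotypes. *Itgam* (chromosome 7, 128062639 to 128118553), the CD11b chain of complement receptor 3, was at 5.01, 5.91 and 4.76 FPKM in transgenic and at 7.48, 7.03 and 12.0 FPKM in wild-type mice. Wild-type replicate 3 stood above the other controls. The log2 fold change was -0.63 (95% interval -1.07 to -0.18, limma adjusted p = 0.0593). In GENCODE M21, 66.8% of the *Itgam* words are also in *Gm49368*, a gene model on the same strand that overlaps it, so its level depends on how the deposited annotation treated that model. *Itgax* (chromosome 7, 128129536 to 128150657), the CD11c chain found on dendritic cells and on macrophages of inflamed fat, had the lowest wild-type mean with *Trem2*. It had 1.78, 2.77 and 1.72 FPKM in transgenic against 3.30, 2.90 and 3.10 FPKM in wild-type iWAT. Transgenic replicate 2 came close to the lowest control, and the log2 fold change was -0.43 (95% interval -0.77 to -0.08, limma adjusted p = 0.0843). Without transgenic replicate 2 its adjusted p was 0.0208.

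*Trem2* (chromosome 17, 48346401 to 48352273), a receptor for lipids that marks the lipid-laden macrophages of obese fat, was the 1 marker gene whose groups overlapped. It had 1.91, 1.74 and 1.17 FPKM in transgenic and 4.03, 3.45 and 1.84 FPKM in wild-type iWAT. Wild-type replicate 3, the highest control for 7 of the 10 genes, was the lowest for *Trem2*. The log2 fold change was -0.63 (SE 0.23, limma adjusted p = 0.10), with an exact permutation p of 0.2. For each of the other 9 genes that test gave 0.1, the smallest two-sided p that 3 mice against 3 allow. Without wild-type replicate 3 the *Trem2* adjusted p was 0.0311 and its log2 fold change -0.87.

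**Figure D2:**
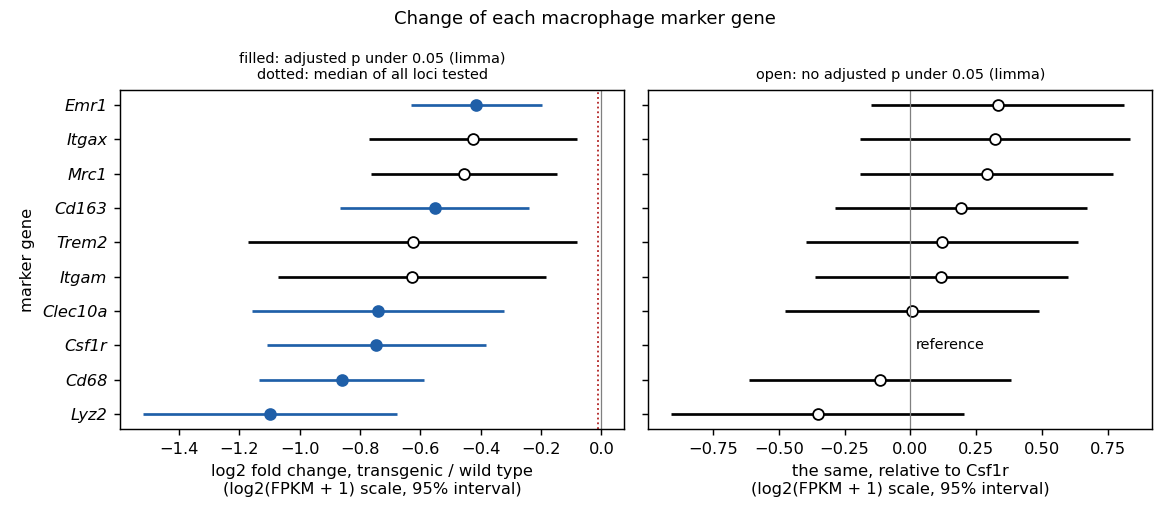
Log2 fold change of each marker gene with its 95% interval (left), and the same relative to *Csf1r* in the same mouse (right), both on the log2(FPKM + 1) scale. Filled points have a limma adjusted p under 0.05, open points do not, and the dotted line at -0.01 is the median of all loci tested. All 10 intervals on the left lie below 0, and all 9 on the right include 0. The intervals are not adjusted for the number of loci tested.

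The order of the levels was nearly the same in both genotypes. In wild-type iWAT it ran from *Lyz2* at 653 FPKM through *Cd68*, *Csf1r*, *Clec10a*, *Mrc1*, *Cd163*, *Emr1* and *Itgam* to *Trem2* and *Itgax*, both at 3.1 FPKM. The neighbours *Clec10a* and *Mrc1*, *Emr1* and *Itgam*, and *Trem2* and *Itgax* overlapped in their ranges over the mice, and all other neighbours were apart. In transgenic iWAT only *Itgax* and *Trem2* changed places, and the same 3 pairs overlapped. Mice within a genotype also differed from each other in a shared way. Transgenic replicate 2 was the highest transgenic mouse for 8 of the 10 genes, and wild-type replicate 2 was the lowest control for 9. Summed over the 10 genes, the transgenic mice had 376, 529 and 391 FPKM and the wild-type mice 820, 777 and 989 FPKM. *Lyz2* made up 69.7% to 72.6% of this sum in the transgenic mice and 74.8% to 76.3% in the wild-type mice. Without *Lyz2* the sums were 114, 145 and 114 FPKM against 207, 184 and 234 FPKM, so the gap did not rest on this gene.

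Whether the marker genes changed by different amounts was tested relative to *Csf1r* in the same mouse. None of the 9 other genes differed by limma (lowest adjusted p 0.196, 0 with an unadjusted p under 0.05), where 76.5% of all loci were higher and 0.736% lower relative to *Csf1r*. The estimates ran from -0.35 for *Lyz2* to 0.33 for *Emr1*, and the 95% intervals reached from -0.91 to 0.83. These intervals are wide, so the test does not show that the genes changed by the same amount. With sample quality weights in the fit, whose estimation stopped short of convergence relative to *Csf1r* and to *Ptprc*, 3 of the 9 were lower and 5 higher relative to *Csf1r*, and of 11691 loci 311 were lower and 11169 higher in that fit. The spread of *Csf1r* enters every locus of that fit, with an SE of 0.25 for *Mrc1* against 0.04 from the 6 ratios of *Mrc1* alone. Each gene was therefore also compared with *Csf1r* by the exact permutation test of its log2(FPKM + 1) difference, a comparison chosen after the values were seen. *Mrc1* was at 0.617, 0.591 and 0.625 of the *Csf1r* level in the transgenic mice and at 0.500, 0.514 and 0.488 in the wild-type mice, with no overlap (exact permutation p = 0.1). *Emr1* was likewise higher relative to *Csf1r*, at 0.289, 0.231 and 0.250 against 0.223, 0.226 and 0.178 (exact permutation p = 0.1). *Lyz2* went the other way, at 11.8, 12.7 and 12.0 times the *Csf1r* level in transgenic and 14.6, 16.1 and 15.1 times in wild-type mice (exact permutation p = 0.1). *Itgax* was higher relative to *Csf1r* on the log2(FPKM + 1) scale, but its plain ratios overlapped, and for the other 5 genes the groups overlapped on the log2(FPKM + 1) scale. The log2(FPKM + 1) difference from *Csf1r* was higher in every transgenic than in every wild-type mouse at 79.1% of all loci and lower at 0.573%.

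The marker genes were also set against *Ptprc*, which encodes CD45 of all leukocytes, again after the values were seen. *Ptprc* had 24.3, 36.5 and 35.4 FPKM in transgenic and 34.4, 47.4 and 51.4 FPKM in wild-type iWAT, with overlapping groups (log2 fold change -0.46, limma adjusted p = 0.147). None of the 10 marker genes differed relative to *Ptprc* by limma (lowest adjusted p 0.251, 0 with an unadjusted p under 0.05). The estimates ran from -0.64 to 0.05, with SEs of 0.31 to 0.39. Their intervals, taken as in the comparison with *Csf1r*, reached from -1.41 to 0.66. These intervals are wide, so the test does not show that the marker genes changed by the same amount as *Ptprc*. Of all loci, 0.633% were lower relative to *Ptprc* by the same test. With sample quality weights 5 of the marker genes and 363 of 11691 loci were lower relative to *Ptprc*. Only the *Lyz2* ratio had no overlap, at 10.8, 10.5 and 7.81 in the transgenic and 17.8, 12.5 and 14.7 in the wild-type mice (exact permutation p = 0.1). For the other 9 the ratio to *Ptprc* overlapped between the genotypes, and 0.932% of all loci were lower relative to *Ptprc* in every transgenic than in every wild-type mouse.

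**Figure D3:**
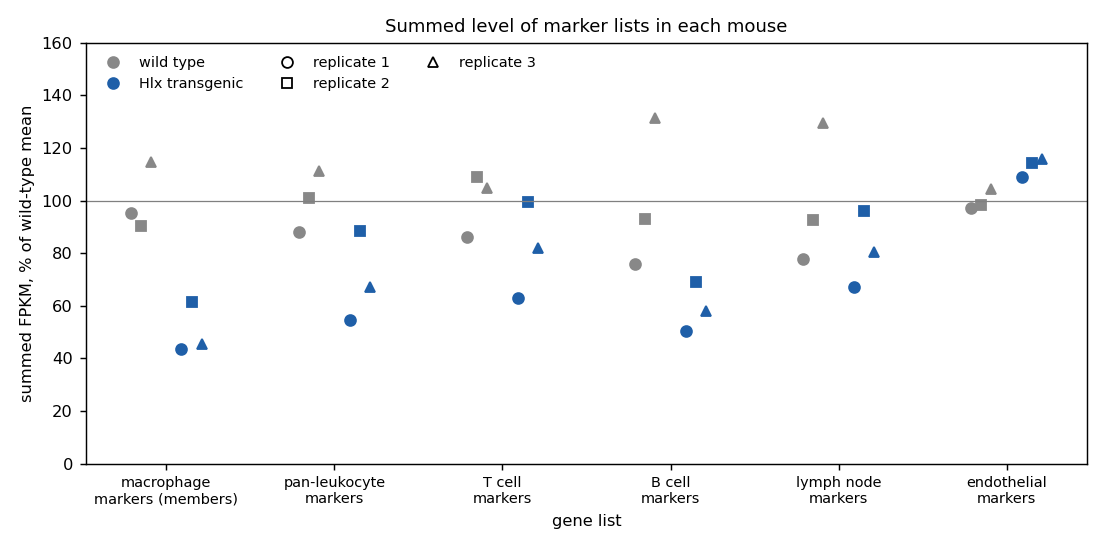
Summed FPKM of marker lists in each mouse, as a percentage of the wild-type mean of that list. Each point is 1 mouse, grey for wild type and blue for *Hlx* transgenic, and the line at 100 is the wild-type mean. The transgenic points of the 10 macrophage markers and of the B cell markers lie below all wild-type points. Pan-leukocyte, T cell and lymph node points overlap between the genotypes. The pan-leukocyte overlap is between transgenic replicate 2 at 700 FPKM and wild-type replicate 1 at 697 FPKM. Endothelial points are higher in the transgenic mice.

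Marker genes of other leukocytes were looked at beside the macrophage markers. For the counts that follow, 7.03% of all loci tested fell and 11.6% rose. Every transgenic mouse was above every control at 22.8% of them. The 5 pan-leukocyte genes were all below 0, with a median log2 fold change of -0.54 and 0 called, and summed to 432 to 700 FPKM in transgenic against 697 to 882 FPKM in wild-type mice. In 3 of these 5 every transgenic mouse was below every wild-type mouse, against 20.1% of all loci tested. iWAT holds a lymph node, and *Glycam1*, counted here among its genes, was at 1841 to 3455 FPKM in all 6 mice. Its log2 fold change was -0.20 with overlapping groups, and which cells this RNA came from was not tested. Of 5 lymph node genes, 3 fell (*Madcam1*, *Cxcl13* and *Cr2*, log2 fold changes -1.13, -0.93 and -0.80), and the 5 summed to 2096 to 2994 FPKM in transgenic and 2431 to 4047 FPKM in wild-type mice. *Madcam1* passed under all 14 alternatives, but the count was 1 without transgenic replicate 1 or 3 and 2 without transgenic replicate 2 or wild-type replicate 2. Of 5 B cell genes, 2 fell (*Ms4a1* and *Cd22*), with sums of up to 138 FPKM in transgenic and of 151 FPKM or more in wild-type mice. The count was 0 without wild-type replicate 2 or transgenic replicate 1 or 3, 1 without wild-type replicate 3, and 4 without wild-type replicate 1. The median log2 fold changes were -0.80 over the lymph node genes and -0.74 over the B cell genes, against -0.63 over the macrophage markers. Every transgenic mouse was below every control in 4 of 5 lymph node genes, 4 of 5 B cell genes and 1 of 7 T cell genes. Of 7 T cell genes 0 were called, with sums of 173 to 273 and 237 to 299 FPKM. Among 5 dendritic cell genes, only *Cd209a* fell (log2 fold change -0.82, limma adjusted p = 0.00901), with sums of 29.2 to 46.5 and 44.0 to 53.9 FPKM. The median of these 5 was -0.37. Every transgenic mouse was below every control in 2 of them and above in 1, *Zbtb46* (log2 fold change 0.25, limma adjusted p = 0.126). The part of these cells in the values of *Itgax*, *Itgam*, *Lyz2* and the other marker genes was not tested. Neutrophils carry *Lyz2* and *Itgam* as well, and 0 of their 4 tested genes were called (median log2 fold change 0.98). These genes went both ways, with 1.06 for *S100a8*, 1.07 for *S100a9*, 0.90 for *Retnlg* and -0.82 for *Cxcr2*. *Cxcr2* was lower and *S100a9* higher in every transgenic mouse than in every control. The neutrophil list summed to 21.3 to 54.0 FPKM in transgenic and 8.15 to 20.8 FPKM in wild-type mice. Skeletal muscle genes summed to 548 FPKM in transgenic replicate 2 and 75.5 and 105 FPKM in the other transgenic mice, against 5.01 to 109 FPKM in the controls. Adipocyte genes were abundant, as the labelled tissue has them, with *Adipoq*, the gene of adiponectin, at 1279 FPKM or more in every mouse.

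Of 17 other genes found throughout the macrophage lineage, all had a log2 fold change below 0, with a median of -0.60. Where 7.03% of all loci tested fell and 11.6% rose, 6 of these genes fell and 0 rose. They were *Mertk*, a receptor for dying cells (-0.84, limma adjusted p = 0.0283), *Tyrobp* (-0.81, adjusted p = 0.0125), the lysosomal protease gene *Ctss* (-0.74, adjusted p = 0.0352), the Fc receptor gene *Fcgr3* (-0.72, adjusted p = 0.0362), the NADPH oxidase gene *Cybb* (-0.70, adjusted p = 0.0325) and *Fcer1g*, the signalling chain of Fc receptors (-0.70, adjusted p = 0.0184). *Tyrobp*, the adaptor through which Trem2 signals, had 50.6, 74.4 and 52.1 FPKM in transgenic and 107, 99.6 and 103 FPKM in wild-type iWAT. It was the 1 gene of the 6 that passed under all 14 alternatives. The count of the list was 1 without wild-type replicate 1 or 3 or transgenic replicate 1, 2 without transgenic replicate 3, and 12 without transgenic replicate 2. The complement genes *C1qa*, *C1qb* and *C1qc*, which resident macrophages make, had log2 fold changes of -0.64, -0.58 and -0.60 with overlapping groups (limma adjusted p from 0.0753 to 0.109).

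Genes of resident and alternatively activated macrophages fell in 4 of 14 tested, with a median log2 fold change of -0.46, and 0 rose. Of all loci tested, 7.03% fell and 11.6% rose. *Retnla*, a secreted product of macrophages under interleukin 4, was at 345, 536 and 310 FPKM in transgenic against 1072, 1068 and 872 FPKM in wild-type mice (log2 fold change -1.37, limma adjusted p = 0.00772). *Ccl24*, an eosinophil chemokine (-1.11, limma adjusted p = 0.0104), and *Folr2*, a folate receptor of resident macrophages (-0.93, adjusted p = 0.0112), passed under all 14 alternatives, as did *Retnla*. *Cbr2* (-0.53, limma adjusted p = 0.0468) did not pass without any 1 of the 3 wild-type mice or of transgenic replicates 1 and 3. Of 9 inflammatory genes tested, 1 fell, *Ccr2*, the chemokine receptor of monocytes (-0.51, limma adjusted p = 0.00844), and the median was -0.19. This count was near the share of all loci that fell. *Il1b* and *Il6* were under the expression filter in both genotypes.

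The genes of lipid-associated macrophages and of the lysosome went both ways, with 3 of 11 falling and 1 rising (median log2 fold change -0.39). The shares over all loci tested were 7.03% falling and 11.6% rising. *Gpnmb*, *Cd63* and *Acp5* fell (-1.17, -0.97 and -0.76, limma adjusted p = 0.0112, 0.000935 and 0.0233). *Cd63*, a tetraspanin of late endosomes that many cell types express, had 35.1, 33.8 and 37.2 FPKM in transgenic and 76.1, 68.9 and 65.9 FPKM in wild-type iWAT. *Lipa*, the lysosomal acid lipase, rose, with 67.6, 56.4 and 63.5 FPKM in transgenic against 32.5, 29.3 and 34.1 FPKM in wild-type mice (log2 fold change 0.94, limma adjusted p = 0.00171). The lysosomal proteases *Ctsb* and *Ctsd* had log2 fold changes of 0.38 and 0.47 (limma adjusted p = 0.119 and 0.0802), while *Cd68*, which shares the lysosome with them, fell. *Acp5* did not pass without any 1 of the 3 wild-type mice or of transgenic replicates 1 and 3, whereas *Gpnmb*, *Cd63* and *Lipa* passed under all 14 alternatives.

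Of 13 ligands and partners of the marker genes, 1 fell and 1 rose, where 18.6% of all loci were called in either direction, so the share was near that of all loci. *Il34*, 1 of the 2 ligands of Csf1r, had 4.36, 5.04 and 4.93 FPKM in transgenic and 8.67, 8.97 and 6.04 FPKM in wild-type iWAT (log2 fold change -0.61, limma adjusted p = 0.0308), and was not called without wild-type replicate 1 or 2 or without any 1 of the transgenic mice. *Csf1*, the other ligand, was at 17.6, 17.4 and 13.6 FPKM against 21.0, 20.4 and 27.1 FPKM, with no overlap (log2 fold change -0.47, limma adjusted p = 0.0626). *Hp*, haptoglobin, the partner of Cd163, rose from 444 ± 89.2 to 1190 ± 487 FPKM (SD, n = 3 each; log2 fold change 1.37, limma adjusted p = 0.0206), and its adjusted p was 0.0722 without wild-type replicate 3. *Itgb2*, the shared partner of both integrin chains, had a log2 fold change of -0.57 (limma adjusted p = 0.0777), close to those of *Itgam* and *Itgax*.

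**Figure D4:**
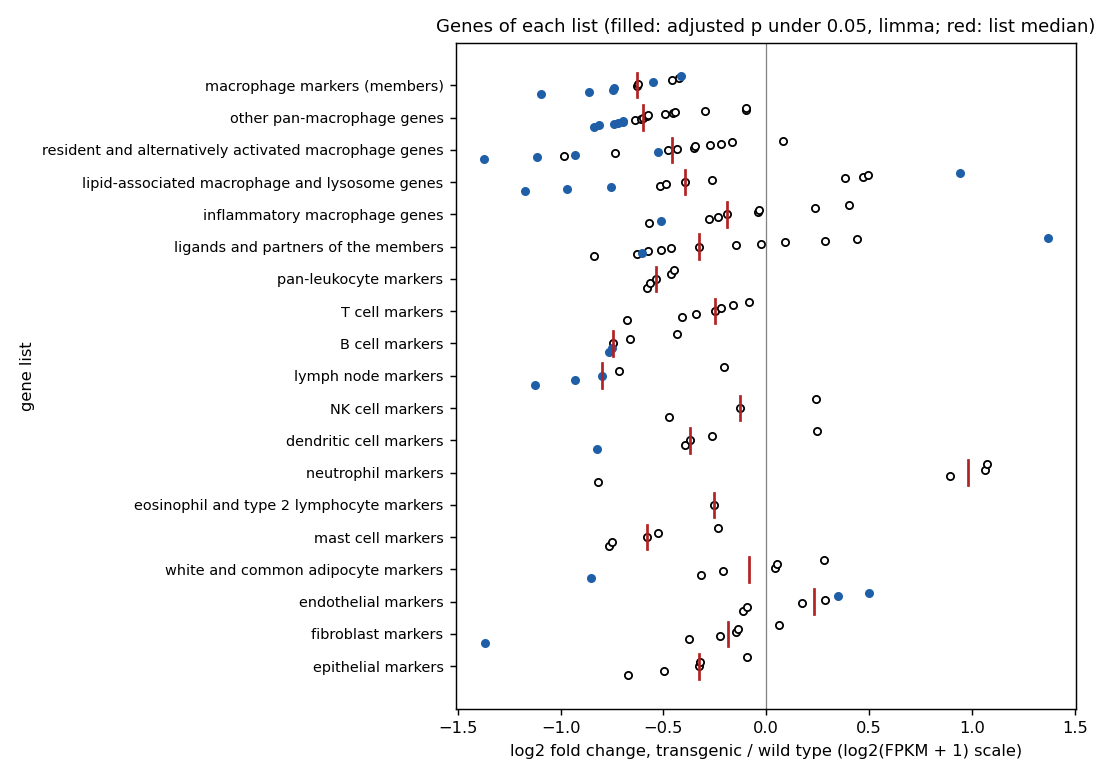
Log2 fold change (log2(FPKM + 1) scale) of every tested gene of the macrophage marker list, the related lists and the lists of other cell types, 1 row per list. Filled points have a limma adjusted p under 0.05, and the red bar is the median of the list. All 10 macrophage markers and all 17 other pan-macrophage genes lie below 0, while the lysosome row spreads from -1.17 to 0.94.

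Over the 6 mice, 9 of the marker genes followed the mean standardised level of the 10 with Pearson correlations of 0.907 to 0.991, and *Trem2* with 0.650. These values describe 6 libraries that share the difference between the genotypes, so they carry no test. Each marker gene is also part of that mean, which raises its own correlation. The genes outside the list with the closest pattern were *Tgfbi* (0.997), *Ephb6*, *Folr2*, *Cyp4f16*, *St3gal1*, *Fcer1g*, *D19Ertd386e*, *Pla2g2d*, *Rbm43* and *Tgfb1* (0.990). Of the 100 closest, 6 stood in one of the other lists, namely *Folr2*, *Fcer1g*, *Ccr2*, *Madcam1*, *Tyrobp* and *Emr4*. All 100 had a log2 fold change below 0, which largely follows from ranking by likeness to a pattern that is lower in the transgenic mice.

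As a check of the groups, *Hlx* was at 79.6 to 110 FPKM in the transgenic mice and at 6.88 to 8.14 FPKM in the controls. *Ucp1*, a thermogenic gene of brown fat, was at 541 to 634 FPKM in the transgenic mice and at 17.5 to 57.8 FPKM in the controls. FPKM sums were 466059 to 542096 per mouse, and the relative depth read from the steps of the lowest values was 0.692 to 1.41, lowest in transgenic replicates 1 and 3. *Xist* was at 20.2 to 33.6 FPKM in all 6 mice and 28 loci of the Y chromosome were at 0, against the labelled sex, in both genotypes alike.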

How the data were processed

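Libraries of iWAT RNA from 3 transgenic (TG) and 3 wild-type (WT) mice were compared, with groups from the sample labels. TruSeq v2 libraries had been sequenced as single-end reads of 100 bases. Per the submitters' processing notes, CASAVA 1.8.2, TopHat2 2.0.9, Bowtie2 2.1.0 and Cufflinks 2.2.1 were used with mm10, and the annotation is not given in the sources used here. The authors deposited FPKM per gene locus and mouse. No counts were used and the absolute depth is unknown.

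The members and lists were chosen with earlier results of these data known. For 409 symbols with more than 1 locus the locus of highest mean FPKM was used, and 433 loci carry more than 1 symbol. Coordinates are given 1-based, since the deposited starts count from 0. The 11692 loci whose mean FPKM was over 1 in either genotype were tested on log2(FPKM + 1) with limma 3.58.1 in R 4.3.3 (two-sided, lmFit and trended eBayes without covariates, Benjamini-Hochberg adjustment, threshold 0.05). The same fit was run relative to *Csf1r*. Single values were compared by the exact permutation test over 20 arrangements. All 10 members were named, with up to 6 called genes per related list and the 10 loci with the closest pattern. In simulated data of 11692 loci the test recovered 94% of 100 genes changed 3-fold and 79% of 100 changed 2-fold, and 3.89% of 180 calls were unchanged genes.

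Alternatives were another pseudocount (0.1), no filter, filtering on the mean over the 6 mice, quantile or median-ratio normalization, eBayes without a trend, weights for sample quality, a block for the replicate number, stricter calls, means over the loci of a symbol and each mouse left out. *Ptprc* as reference and the permutation test of ratios were chosen after the values were seen. Shared sequence was counted as 100-base words of GENCODE M21 transcripts, and promoters came from RefSeq (GRCm38.p6). Figures were drawn with matplotlib 3.10.9 in Python 3.11.15.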

Additional observations from a re-analysis of the deposited data

How the results depend on the processing

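All 10 marker genes stayed below 0 in each of 140 values from 14 alternative settings. Of these values, 111 kept their side of the threshold, 22 lost and 7 gained a call. The median over the members stayed between -0.74 and -0.53, and 0 members rose under any of 16 settings. Of 6 members called lower, 2 were called at an adjusted p under 0.01 and 1 with a 2-fold ratio in addition (all loci: 569 higher and 199 lower, and 413 higher and 204 lower). Without 1 mouse, 2 to 7 members, 329 to 906 loci lower and 780 to 1295 loci higher were called. Relative to *Csf1r*, 86 loci were lower and 8943 higher, and 64 to 99 and 5590 to 9832 without 1 mouse. With a 2-fold change they were 39 and 2480, and with sample quality weights 311 loci were lower, with 3 members lower and 5 higher. Quantile normalization gave 1 member lower relative to *Csf1r*. Without a filter *Cd163* and *Clec10a* were not called (adjusted p 0.0539 and 0.0544, limma), and *Mrc1* was called with quantile normalization (0.0461) or sample quality weights (0.0449). The cause of these moves was not tested, beyond the fewer samples or stricter thresholds that some settings impose by construction. Of 27 called genes of the other lists, 11 kept their call under every alternative and 0 reversed, and 566 of 646 list counts stayed within 1.5 times.

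With the replicate number as a block, 656 loci were called lower and 1230 higher, and 4 members were called. *Emr1*, *Csf1r* and *Clec10a* were not (adjusted p 0.0555, 0.0518 and 0.0751, limma) and *Trem2* was (0.0415), and relative to *Csf1r* 52 loci were lower and 5302 higher. The numbers name different mice, same-numbered deviations correlated at 0.01 to 0.07, and 0 of 3 transgenic mice correlated best with their own number.

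With 3 mice per genotype and unknown absolute depth, the counting error of low values such as those of *Trem2* and *Itgax* could not be given. The level of *Xist* went against the labelled sex in all 6 mice.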

Other observations

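Among cell types outside the macrophage lineage, 2 of 6 endothelial genes rose, *Emcn* from 20.2 ± 1.53 to 29.1 ± 3.54 FPKM and *Kdr*, the main receptor for vascular growth factor, from 14.3 ± 1.30 to 18.4 ± 0.631 FPKM (SD, n = 3 each; limma adjusted p = 0.0223 and 0.0329). Of all loci tested, 11.6% rose and 7.03% fell. The median log2 fold change of the 6 endothelial genes was 0.23, and 2 of them were below 0. *Emcn* was not called without wild-type replicate 2 or 3 or transgenic replicate 3, and *Kdr* without wild-type replicate 1 or 2 or any 1 transgenic mouse. With any 1 mouse left out the count was 0 or 1. Of 6 fibroblast genes, 1 fell, *Dpt*, a matrix protein gene (log2 fold change -1.37), and it passed under all 14 alternatives. Of 6 adipocyte genes, *Adipoq* fell (-0.85) and 0 rose, and it was not called without wild-type replicate 2 or transgenic replicate 3. The median of these 6 was -0.08, and 3 of them were below 0. Every transgenic mouse was below every control in 1 of them and above in 1. Mast cell genes summed to 80.9 to 165 FPKM in transgenic and 116 to 228 FPKM in wild-type mice, with 0 of 5 called and a median of -0.58. The 3 tested NK cell genes, the 1 tested eosinophil and type 2 lymphocyte gene and the 5 epithelial genes were not called, with medians of -0.13, -0.25 and -0.33, and 5 skeletal muscle genes had a median of 2.36 with 0 called.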
